A study of Lathyrus oleraceus with 4 samples.

Results

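The standard cDNA library of the pea shoot apical meristem (SAM) was made from dissected SAMs without normalization or subtraction, so that clones were picked roughly in proportion to the abundance of their transcripts. On the oligonucleotide array its probes carry names of the letter C and 4 digits. There were 290 such probes among the 2234 that were not blank, and 284 of them are described here. The other 6 (C0163, C0189, C0250, C0304, C0386 and C0414) were set apart by the rule that chose the members. The rule used names only and no measured value.

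The SAM is the dome of dividing cells at the shoot tip that renews its own stem cells and gives rise to leaves and stem. Cells in it are small, divide often and lack mature chloroplasts. Messages for histones, replication proteins and ribosomes are known to be plentiful in dividing plant cells, and messages of photosynthesis are typical of expanded leaves.

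RNA came from garden pea, cultivar Torsdag, 10 days old, with no mutant and no treatment in either group. SAM RNA was taken from pools of about 80 dissected SAMs with the leaf primordia removed, and non-meristem (NM) RNA came from primary stem, primary root and mature leaf. NM is therefore a mixture of organs, and a low level in it can be a high level in 1 of them. Each of 4 independent collections was hybridized to 1 sector of a chip. On sectors 1 and 3 the SAM sample was the one labelled with Cy3, on sectors 2 and 4 the NM sample was, and the partner took Cy5.

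The value of a probe is the log2 ratio of SAM over NM signal on a sector, normalized within the sector by a robust spline, with the mean over the 4 sectors. Differences were tested with limma across all 2234 probes with Benjamini-Hochberg adjustment, and every adjusted p below is of that kind. A call needed an adjusted p under 0.05 together with a ratio over 1.3 (higher in the SAM) or below 0.7 (lower). Every direction rests on reading the first intensity column as Cy5, which the tables do not state. The sample labels list Cy3 first, and with that order all signs would turn. Ratios come from whole tissues, and fewer cells of a type cannot be told apart from less RNA per cell.

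Of the 2234 probes, 382 (17.1%) were called in either direction. No spot reached the brightness of saturation, with a highest intensity of 43284.5, and no member was as dim as the brightest of the 6 blank spots in either channel of any sector. The GenBank-named probes for proliferating cell nuclear antigen, cyclin D and DNA methyltransferase had log2 ratios of 1.90, 0.99 and 0.55. Another 3 GenBank-named probes, of photosynthesis, lay between -2.58 and -1.35. These were chosen with their values known. The study lists them as changed, and the dye of the first channel was read from such listed probes. Their signs followed from that reading and are no check of the tissues.

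The log2 SAM/NM ratios of the 284 standard-library probes had a median of 0.08. It was 0.36 without normalization, 0.29 with a spline drawn through the GenBank-named probes only and 0.14 with the blank spots as background. The 25th and 75th percentiles were -0.08 and 0.38, an interquartile range of 0.46 (0.74 with the blank spots as background), and the whole set ran from -2.29 to 3.21. Over the 1950 other probes the median was -0.01 and the interquartile range 0.22. By source, the interquartile range of subtracted-library probes was 0.39, of normalized-library probes 0.18 and of GenBank-named probes 0.36. Measured by the SD over probes, the spread of the members was 0.65 and that of the GenBank-named probes 0.69. The 95th percentile was 1.34 for members, 1.32 for subtracted-library probes and 0.44 for GenBank-named probes, and the 5th percentiles were -0.84, -0.22 and -1.66. These differences between sources were not tested. Of the members, 30 were over 2-fold higher and 11 over 2-fold lower, and 186 lay within 1.3-fold of no difference. The median on single sectors was 0.10, 0.07, 0.11 and 0.12 for sectors 1 to 4, and the interquartile range was 0.52, 0.50, 0.67 and 0.74.

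Higher calls outnumbered lower calls about 3 to 1. Of the 284 probes, 67 (23.6%) were called higher in the SAM, against 9.76% of all probes, and 21 (7.39%) were called lower, against 7.34% of all probes. The share of lower calls was near that of the whole array, which combines sources with unlike shares. By source, 21.6% of subtracted-library, 4.75% of normalized-library and 5.24% of GenBank-named probes were called higher. The shares called lower were 1.01%, 3.38% and 18.6%. The members' share of lower calls was thus above those of the subtracted and normalized libraries and below that of the GenBank-named probes. These differences were not tested. Higher calls had a median log2 ratio of 0.97, and their lowest was 0.40. Lower calls had a median of -1.01 and ran from -2.29 to -0.55. Whatever the ratio, 102 members had an adjusted p under 0.05 (20.1% of all probes did), and 14 of these did not pass the limits on the ratio. Of the calls, 76.1% were higher. That split was 94.4% when the sectors were not normalized (17 higher and 1 lower) and 89% when the spline was drawn through the GenBank-named probes only (105 higher and 13 lower). Centring each sector on its median left 42 higher and 18 lower. Counts over all probes moved too, from 218 higher and 164 lower. They were 49 and 31 without normalization, 411 and 106 with that spline, and 128 and 136 with median centring. With each sector left out in turn, between 55 and 68 members were called higher and between 18 and 23 lower.

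Signal in each tissue was expressed as a log2 level. The mean intensities of both channels were first put on a common distribution over the 4 sectors. The normalized ratio was then split evenly around that mean. The SAM and NM levels of a probe therefore differ by its log2 ratio and are not separate measurements. A level also depends on how well a probe binds, so levels are given for sets and not to rank single transcripts. The median SAM level of the members was 9.03 and the median NM level 8.87. Subtracted-library probes had medians of 8.91 and 8.65, normalized-library probes 8.53 and 8.49, and GenBank-named probes 8.54 and 8.77. SAM levels of the members spread from 7.75 to 13.1 and NM levels from 7.77 to 12.5. When all probes were divided by mean signal into a dim, a middle and a bright class of equal size, the bright class held 136 members (47.9%), the middle class 83 (29.2%) and the dim class 65 (22.9%). For probes outside the set these shares were 31.2%, 33.9% and 34.9%.

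Calls were concentrated in bright probes. In the bright class 54 of 136 members (39.7%) were called higher and 18 (13.2%) lower. In the middle class there were 12 higher and 2 lower calls, and in the dim class 1 of each. Within the bright class, 15.9% of the probes outside the set were called higher and 14.8% lower, so members had the larger share of higher calls among bright probes too. The bright class of the subtracted library gave 37.7% higher and 1.75% lower. Members called higher had a median level of 10.4 in the SAM and 9.28 in NM, and those called lower had 9.04 in the SAM and 10.4 in NM. The direction of these gaps was fixed by the calls, because the levels are built from the ratios. Members that were not called lay at 8.74 and 8.72.

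Arrays with the same dye orientation were closer to each other than arrays with opposite orientation. Across the 284 members, the Pearson correlation of log2 ratios was 0.911 between sectors 1 and 3 and 0.888 between sectors 2 and 4. For the 4 pairs of opposite orientation it was between 0.794 and 0.858. These are correlations across probes of the same arrays, which are not independent replicates. Over the 196 members that were not called, the same-dye pairs still gave 0.594 and 0.652, whereas the opposite pairs gave -0.06 to 0.20. The uncalled members are those without a clear mean over both orientations, which by itself lowers the correlation of opposite pairs, so nothing is read from that contrast. Dye effects were also tested probe by probe. With dye as a term, 1 member passed an adjusted p of 0.05 for it (0.224% of all probes did), and 61 of 284 (21.5%) passed at an unadjusted p under 0.05, against 23.1% of all probes. Both unadjusted shares exceed the fraction of 0.05 that this limit passes where no probe has a dye effect. The small adjusted count therefore does not show that dye effects were rare.

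The member with that dye effect was C0052, for which the study lists no annotation. Its log2 SAM/NM ratios were 0.78, -0.93, 1.06 and -0.59 on sectors 1 to 4. The sign followed the dye of the SAM RNA, and the mean was 0.08 ± 0.99 (SD, n = 4 arrays, adjusted p = 0.947). C0446 showed the same alternation, from -0.68 to 0.62, with a mean of -0.01.

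All 88 called members had 1 direction on all 4 arrays, against 99% of all called probes. Calls by themselves favour this, because a small adjusted p needs a mean that is large against the spread over arrays. Of the whole set, 139 (48.9%) had 1 direction throughout, against 34.7% of all probes, with 98 always above 0 and 41 always below. The median SD of a member was 0.22 and the 90th percentile 0.44. Arrays differed in how far they stretched the called ratios. Sector 3 gave the largest value for 40 of the 67 higher calls and sector 2 the smallest for 32. The median over the 67 was 0.80, 0.74, 1.19 and 1.03 on sectors 1 to 4. For the 21 lower calls it was -0.89, -0.85, -1.12 and -1.27, and sector 4 gave the largest fall for 12 of them.

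The array names members by clone only. Annotations exist here for 80 members that the study lists by accession as changed, joined to the clones by the listed values. The 80 were therefore selected for their difference on these same arrays, and counts by function below describe that selection and are not independent evidence of a direction. Of the 67 higher calls 57 had an annotation, and of the 21 lower calls 19.

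The strongest transcript was C0098 (EX571192), which had no match in the protein database. Its SAM intensities were 4225, 2888, 19623.5 and 42520.5 on sectors 1 to 4. Its NM intensities were 687, 761, 1067 and 1139. Intensities of different sectors are on different scales because dyes and sectors differ in brightness. SAM was brighter than NM on every sector. The normalized log2 ratios were 2.75, 2.44, 4.01 and 3.63, with a mean of 3.21 ± 0.74 (SD, n = 4 arrays, adjusted p = 1.81e-04), or 9.24-fold.

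C0336 (EX569274) is annotated as a lipid transfer protein, a small secreted protein class that binds lipids and is often found in epidermis. SAM intensities were 2937, 1243, 3322 and 5055.5 on sectors 1 to 4, and NM intensities 492.5, 588.5, 422.5 and 619. Its log2 ratio was 2.10 ± 0.38 (SD, n = 4, adjusted p = 1.49e-04). The values were 2.53, 1.76, 2.32 and 1.81, so that both arrays with SAM in Cy3 were above both with SAM in Cy5.

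Another 3 of the 12 highest members carry no annotation in the sources used here. C0195 had log2 ratios of 1.70, 2.20, 2.55 and 1.79 on sectors 1 to 4, a mean of 2.06 ± 0.39 (SD, n = 4, adjusted p = 1.56e-04). C0452 had 1.31, 1.63, 2.75 and 2.49, with a mean of 2.05 and an adjusted p of 7.38e-04. C0457 had a mean of 1.71, with sector 3 at 2.46 and the other sectors between 1.27 and 1.58 (adjusted p = 5.89e-04).

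Among the annotation groups higher in the SAM that held more than 1 member, chromatin and DNA had the highest median. All 10 of its members were called higher, with log2 ratios from 0.78 to 2.02 and a median of 1.40. Of these, 5 encode core histones, the proteins around which DNA is wound and which are made mainly while DNA is copied. The H2A.2 transcript C0178 had SAM intensities of 2277, 2719.5, 5327 and 9384 and NM intensities of 669, 1059, 562 and 1008.5 on sectors 1 to 4. Its log2 ratio was 2.02 ± 0.44 (SD, n = 4, adjusted p = 2.05e-04). Sector 3 stood at 2.68 and the others between 1.74 and 1.84.

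The H3 transcript C0415 had a log2 ratio of 2.01 ± 0.35 (SD, n = 4, adjusted p = 1.44e-04), with values of 2.18, 1.70, 2.42 and 1.75. The H2B transcript C0243 had 1.91 ± 0.57 (SD, n = 4, adjusted p = 5.55e-04), with values of 1.31, 1.54, 2.44 and 2.35. Another H2A transcript, C0167, had 1.55 and an H3.2 transcript, C0340, 1.46. For C0415 and C0167, both arrays with SAM in Cy3 were above both with SAM in Cy5. Gene copies within 1 histone class can be near-identical to each other, and how far 1 probe measures several of them is not known. C0290 has an annotation that names the histone fold together with TAF and NF-Y proteins, and which of these it encodes is not given. Its log2 ratio was 1.34 ± 0.38 (SD, n = 4).

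The remaining members of the group rose by less than the core histones. Replication factor C, which loads the sliding clamp onto DNA, had a log2 ratio of 1.21 (C0265). DNA polymerase delta, which extends the new strand, had 1.05 (C0349). C0194, annotated only as a helicase, had 1.04. C0232, annotated as SAR DNA-binding protein 1, was the weakest of the group. Its values were 0.59, 0.06, 1.41 and 1.04, with an adjusted p of 0.0325, and the call was lost without sector 3 (adjusted p = 0.0717), without sector 4 (adjusted p = 0.154) or with median centring (adjusted p = 0.115).

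The ribosome and translation group had 17 members, all called higher. Their log2 ratios ran from 0.45 to 1.58 with a median of 1.01, and no single array value fell below 0.20. The medians of the 17 were close on the 4 sectors, 1.05, 0.97, 1.19 and 0.82. Both subunits of the ribosome were represented. From the small subunit, the S15-like transcript C0239 had the highest log2 ratio, 1.58 ± 0.40 (SD, n = 4, adjusted p = 3.92e-04), S4 (C0214) had 1.53, S17 (C0187) 1.24 and S19 (C0444) 0.55.

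From the large subunit, C0410 had the smallest adjusted p of all members, although its call was lost with median centring (adjusted p = 0.0684). Its SAM intensities were 4543, 3739.5, 11934.5 and 25337.5 and its NM intensities 2354, 1527, 4265.5 and 2781.5. The log2 ratios of 1.39, 1.70, 1.51 and 1.56 were nearly equal on the 4 arrays, with a mean of 1.54 ± 0.13 (SD, n = 4, adjusted p = 1.03e-04). Another large-subunit transcript, C0056, varied least of all 17, from 1.04 to 1.20 with an SD of 0.07. L17 (C0341) had 1.35, L24 (C0050) 1.09, L23 (C0207) 1.06, L39 (C0090) 0.93 and L35 (C0010) 0.45. L24/L26 (C0393), L27E (C0003), L10E (C0466), AtBBC1 (C0368) and C0218 had between 0.71 and 1.01. C0218 is annotated only as a constituent of the ribosome, and its subunit is not given. The beta subunit of translation elongation factor 1 (C0172) had 0.65. Of the 17 calls, all were also made with the spline through the GenBank-named probes, 12 when sectors were only centred on their median (without C0003, C0010, C0090, C0172 and C0410) and 4 when they were not normalized. S19 (C0444) lost its call without sector 4 (adjusted p = 0.0636).

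Around protein synthesis, other annotated transcripts were also called higher. Fibrillarin (C0121), a nucleolar protein that modifies ribosomal RNA, had a log2 ratio of 1.03 ± 0.44 (SD, n = 4). A ubiquitin extension protein (C0387), whose message joins ubiquitin to a ribosomal protein, had 1.18. The small nuclear ribonucleoprotein B transcript (C0404), a part of the splicing machinery, had 0.98. Both clones annotated to the nascent polypeptide-associated complex, which binds new chains at the ribosome, were called higher, C0399 at 0.54 and C0212 at 0.50, and the latter lost its call without sector 2 (adjusted p = 0.0984) or sector 4 (adjusted p = 0.132). Of the chaperones, a heat-shock protein 80 (C0230) had 0.86, another heat-shock protein (C0416) 0.82 and a DnaK-type protein (C0129) 0.58, with an adjusted p of 0.0601 once sector 4 was left out. Cyclophilin, a folding catalyst (C0017), was bright in both tissues, with levels of 13.1 in the SAM and 12.5 in NM. Its log2 ratio was 0.61 with values from 0.09 on sector 4 to 1.11 on sector 3, and the call was lost without sector 1, 2 or 3 (adjusted p between 0.0651 and 0.0803). With median centring C0017 (adjusted p = 0.617), C0129 (0.142), C0212 (0.306) and C0399 (0.0524) all lost their calls.

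Of the 5 members in the cell wall, membrane and lipid group, 3 were called higher (C0336 and both beta-tubulin transcripts) and 2 lower (both aquaporin clones). The endo-1,4-beta-glucanase C0185, a cell-wall enzyme that the words of that group did not take in, had 1.02 ± 0.36 (SD, n = 4, adjusted p = 0.00173). The beta-tubulin transcripts, which encode a subunit of microtubules, had 0.99 for tubulin 1 (C0122) and 0.59 for tubulin 2 (C0448), and both lost the call with median centring (adjusted p = 0.0532 and 0.161). The HOTHEAD-like oxidoreductase C0441 had 1.01 ± 0.16 (SD, n = 4), one of the steadier values among the strong calls.

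At the lower end, the strongest member was C0124, annotated only as an unnamed pea protein. Its SAM intensities were 599.6, 155, 914.5 and 1121 on sectors 1 to 4. Its NM intensities were 2209.6, 867, 4055.5 and 3995. NM was brighter on every sector. The log2 ratios were -1.95, -1.42, -2.68 and -3.12, with a mean of -2.29 ± 0.76 (SD, n = 4, adjusted p = 6.43e-04), a SAM/NM ratio of 0.204.

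Of the 3 members annotated to stress and defence, all were called lower. Catalase (C0075) breaks down hydrogen peroxide in peroxisomes and is abundant in leaves. Its SAM intensities were 878, 385, 949 and 1524.5, and its NM intensities 2542, 1983.5, 2725.5 and 2210.5. The log2 ratio was -1.76 ± 0.26 (SD, n = 4, adjusted p = 1.44e-04), the smallest adjusted p among lower calls. The dehydrin-cognate C0055, of a protein family that accumulates when cells lose water, had -1.70 ± 0.62 (SD, n = 4, adjusted p = 0.00112). The value was -0.86 on sector 3 and lay between -2.24 and -1.64 elsewhere. On sector 3 its NM intensity was 501, against 839 to 1760.1 on the others. The ozone-responsive transcript C0171 had -0.55. It lost its call with the spline through the GenBank-named probes (adjusted p = 0.111), with median centring (adjusted p = 0.0697) and, on the ratio limit, without sector 4.

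Other annotated lower calls included clones that the words of no group took in, and the aquaporin clones. CP12 (C0119), a small chloroplast protein that holds enzymes of carbon fixation in an inactive complex, had log2 ratios of -0.92, -0.78, -1.74 and -1.93, with a mean of -1.34 ± 0.58 (SD, n = 4, adjusted p = 0.00247). The desaturase-like C0472 had -1.25, with sectors 3 and 4 at -1.72 and -1.76 and sector 2 at -0.53. The ferritin-like C0461 had -1.01 ± 0.38 (SD, n = 4) and the pyridoxal-phosphate enzyme C0474 -0.98 ± 0.26 (SD, n = 4). Aquaporins are water channels of membranes. C0425, annotated as 1, had -0.87, and the aquaporin-like C0421 had -0.76 with sector 2 at -0.25. C0421 lost its call with median centring (adjusted p = 0.332) and with the spline through the GenBank-named probes (adjusted p = 0.47). C0435, annotated as ETHYLENE INSENSITIVE 3, a transcription factor of ethylene signalling, had -0.56 ± 0.12 (SD, n = 4, adjusted p = 0.00384). Its ratio no longer passed the limit when sector 3 was left out or with the spline through the GenBank-named probes (log2 ratio -0.33).

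The other strong lower calls varied in how well the arrays agreed. C0342, an unnamed pea protein, was among the steadiest at -1.28 ± 0.20 (SD, n = 4, adjusted p = 2.05e-04), followed by the hypothetical protein C0241 at -1.01 ± 0.22 (adjusted p = 5.83e-04). C0135, listed under the Arabidopsis locus At5g16110, had -1.33 ± 0.48 (SD, n = 4). C0365, without a protein match, had -0.97, -2.40, -1.12 and -1.74 on sectors 1 to 4. Both arrays with SAM in Cy5 were lower than both with SAM in Cy3, and its dye effect of -0.51 had an adjusted p of 0.104. The RNA-binding protein transcript C0100 had the widest spread of all called members, with an SD of 0.77. Its values were -1.65, -0.30, -1.37 and -2.11, with a mean of -1.36 and an adjusted p of 0.00774, and its call was lost with median centring (adjusted p = 0.135) and with the spline through the GenBank-named probes (adjusted p = 0.0661).

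The words for no known function took in 18 members, of which 10 were called higher and 5 lower, with values from -2.29 to 3.21. Of these, C0256 (log2 ratio 0.92), is listed as unknown in the annotation used here, but elsewhere in the study under a large-subunit ribosomal protein. Below C0098, the higher calls of this kind began with the hypothetical protein C0456 at 1.01 ± 0.18 (SD, n = 4, adjusted p = 4.42e-04) and the unnamed protein C0281 at 0.97 ± 0.43 (SD, n = 4, adjusted p = 0.00416), and ended with C0374 at 0.49 ± 0.32 (SD, n = 4, adjusted p = 0.0349). The 10 higher calls with no annotation listed ran from 0.40 for C0261 to 2.06 for C0195. Next to those given above were C0391 at 1.32 ± 0.59 (SD, n = 4, adjusted p = 0.00297), with values from 0.65 on sector 2 to 2.08 on sector 3, and C0271 at 1.06 ± 0.26 (SD, n = 4, adjusted p = 6.29e-04). C0303 had the largest adjusted p of all higher calls, 0.0363, with 0.33 and 0.19 on sectors 1 and 2 and 1.40 and 1.25 on sectors 3 and 4. Its call was lost with a dye term (adjusted p = 0.0545), with median centring (adjusted p = 0.0775) and without sector 3 (adjusted p = 0.0876) or sector 4 (adjusted p = 0.17). C0374 and C0261 also lost theirs with median centring and without sector 1, 3 or 4 (adjusted p between 0.0611 and 0.128). The lower calls with no annotation listed were C0460 at -0.62 and C0300 at -0.59, and neither was called with the spline through the GenBank-named probes. C0460 also lost its call without sector 2 (adjusted p = 0.0526) or sector 4 (adjusted p = 0.0613). Of the remaining annotated clones, a guanine nucleotide regulatory protein (C0186), of a class of molecular switches, had 0.61 ± 0.25 (SD, n = 4), a nitrate-induced protein (C0140) -0.86 ± 0.38 (SD, n = 4) and a hydrolase (C0153) -0.86 ± 0.43 (SD, n = 4). C0186 lost its call with median centring (adjusted p = 0.51), and C0140 with median centring (adjusted p = 0.0829) and with the spline through the GenBank-named probes (adjusted p = 0.137). Among members that were not called, C0325 had the largest size, a log2 ratio of -0.51 with values from -1.05 to 0.30 and an adjusted p of 0.171. C0177 (-0.50, adjusted p = 0.0212) and C0320 (-0.48, adjusted p = 0.00628) passed the test but not the ratio limit. With 1 sector left out at a time, 54 of the 67 higher calls and 17 of the 21 lower calls were made in all 4 fits.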

How the data were processed

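The 4 arrays are sectors of a CombiMatrix chip with probes of 35 to 40 bases. The authors hybridized, scanned and quantified them and deposited raw intensity values for both channels, without a background column. They also deposited log2 ratios of the first over the second channel. These are matched within 3.17e-08 by global loess and then scaling in limma. Their medians lie within 0.01 of 0, and they served as an alternative. The first channel was read as Cy5, because 128 of 128 GenBank-named probes that the study lists as changed then take their listed side, and 0 of 128 in the other order. The array whose label carries no number was taken as sector 1.

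The 6 blank spots were left out. Log2 ratios of 2234 probes were normalized by robust spline (5 degrees of freedom) without background subtraction, and 1 tissue coefficient per probe was fitted with lmFit and eBayes (limma 3.58.1, R 4.3.3), signed by dye orientation. Both tissues of a collection share an array, so pairing is within the ratio. The procedure was tested on simulated data.

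Annotations were joined by finding, for each of 230 listed EST accessions, the probe whose fit to the deposited log2 ratios gave the listed ratio and adjusted p (summed relative difference at most 5.79e-06, the runner-up never below 3.22e-04). As a check not using values, 51 of the 59 joined members with accessions up to EX569200 form a single series in which clone number rises with accession. The rest of the 80 joined members have later accessions and were not checked in this way. C0098, C0336, C0415 and C0243 are among them. Annotation groups were made by words, with DnaK and replication factor C placed after the annotations were seen. Probe sequences were not used here.

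Named clones are the 12 highest and 12 lowest calls with 1 direction on all arrays, the 3 smallest adjusted p in each direction, the 3 largest SDs and dye effects, the 3 largest uncalled ratios, and called clones of the annotation groups. Other clones named in the text were chosen after their values were seen. Members and lists were chosen with earlier results of these data known. The alternatives were other normalizations, a background from the blanks, the deposited log2 ratios, a filter on dim spots, a dye term and leaving out each array. The number of arrays, 4, limits the precision. The result of 1 called member is not reported here.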

Additional observations from a re-analysis of the deposited data

Results flagged for a closer look

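In 6 of the 64 clones and summaries examined, 1 array stood far from the other 3, with a gap to the nearest that took up most of the whole range. Chance sets apart about 1 in 20 such groups of 4. Of these, 3 were high on sector 3: the H2A.2 transcript C0178 with a log2 ratio of 2.68 (others 1.74 to 1.84), the ribosomal protein L17 transcript C0341 with 1.92 (others 1.16 to 1.17) and the beta-tubulin 2 transcript C0448 with 1.04 (others 0.41 to 0.47). Another 2 were low on sector 1, the elongation factor 1 beta transcript C0172 with 0.42 (others 0.72 to 0.74) and the ribonucleoprotein B transcript C0404 with 0.54 (others 1.09 to 1.17). The ribosomal transcript C0218 was low on sector 2 with 0.49 (others 0.76 to 0.82). All 6 kept their call with each array left out in turn.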

How the results depend on the processing

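Normalization moved the counts most. Without it, 17 members were called higher, 1 lower and 17 with 1 direction on all arrays, the median log2 ratio was 0.36 and 0 members passed the adjusted limma test for dye (1 at an unadjusted p under 0.05). The median of all probes moved by 0.27, and 49 of them were called higher and 31 lower. With median centring, 42 members were called higher and 0 had a dye effect (64 unadjusted). Of all probes, 128 were then called higher and 136 lower. With the spline through the GenBank-named probes, 105 members were called higher and 13 lower, against 411 and 106 of all probes. The median of the members was 0.29, that of all probes moved by 0.13, and 0 members had a dye effect (51 unadjusted). All 67 higher calls of the members remained there, and 13 of their 21 lower calls. With the blank median as background the median was 0.14 and the interquartile range 0.74. The count of dye effects was 0 with loess (58 unadjusted), 2 with scaling between arrays and 3 with the deposited ratios.

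Of 806 values of 62 named clones under the alternatives, 7 changed sign, none of them called. C0446 had 0.26 without normalization and 0.21 with the GenBank-named spline, and ran from -0.22 to 0.21 with 1 array left out. C0052 ran from -0.25 to 0.42 with 1 array left out. C0325 had 0.13 with the GenBank-named spline. Of the 57 called clones among them, 16 kept the call under every alternative. The cause was not tested. Loess, scaling, the deposited ratios and the dye term left the other counts within 1.5 times. The dim-spot filter kept probes over 2 times the brightest blank in either channel on each sector. It removed no probe, so its counts could not differ from the main ones. In both channels at once, 270 of the 284 members were over that limit on sector 2. No further paired analysis was possible because both tissues of a collection share an array. The median SD over the arrays was 0.18 for dim, 0.23 for middle and 0.26 for bright members, and depth of signal was not otherwise tested as a limit.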

Other observations

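Calls were spread over the range of clone numbers. Of 61 members from C0001 to C0098, 10 were called higher and 2 lower. From C0100 to C0199 it was 12 and 7 of 55, from C0201 to C0298 19 and 1 of 63, from C0300 to C0399 15 and 3 of 54, and from C0400 to C0478 11 and 8 of 51.

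Across the 284 members, the Spearman correlation of the log2 ratio with the spot's column on the sector was 0.12, -0.18, 0.07 and -0.01 for sectors 1 to 4, and with its row -0.01, 0.16, -0.02 and 0.25. Over the other probes the correlation with the column was 0.22, -0.39, 0.08 and -0.08. Probes on a sector share its hybridization, and these values are descriptions only. The part of spot position in the ratios was not tested.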
